A study of Mus musculus with 8 samples.

Results

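Of the 74 genes described here, all but Mrps36 encode proteins of the mitochondrial ribosome. The 74 genes are the deposited rows whose symbol begins with Mrps or Mrpl followed by a digit, without -ps in the symbol, and with 10 or more normalized reads in 3 or more libraries. Of 79 matching symbols among 19055 rows, 4 were pseudogene symbols and 1, Mrps18b, stayed under the limit. By the letter of the symbol, 27 genes, Mrps36 among them, belong to the small subunit and 47 to the large subunit.

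The data are from mouse livers taken 48 hours after partial hepatectomy, the surgical removal of part of the liver, after which the remaining hepatocytes divide. The labels give 5 livers as URI(+/D)Hep, from mice with a hepatocyte deletion of URI made by the tamoxifen-inducible serum albumin-creERT2, where the notation keeps 1 wild-type allele. They give 3 livers as URI(+/+)Hep, from wild-type littermates, called controls below. All mice were 8 to 9 weeks old at surgery and had received tamoxifen for 1 week, and other liver cells lie outside the reach of the Cre. The sources used here do not give whether controls carry the Cre. Libraries were made by oligo-dT priming at the 3′ ends of transcripts, with 1 library for each liver the labels list. Values are the authors' normalized reads, in which each library's counts were scaled by 1 factor. Errors are SD over the 5 libraries labelled URI(+/D)Hep and the 3 control libraries.

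Mitochondria carry their own ribosome, which translates only the few mRNAs of mitochondrial DNA, all for membrane proteins of the respiratory chain and ATP synthase. Its rRNAs come from mitochondrial DNA, while every protein of it is encoded in the nucleus, made in the cytosol and imported. Some of these proteins have counterparts in bacterial ribosomes, and the others are specific to mitochondria. The hepatocyte is rich in mitochondria, and a dividing cell has to make more of them.

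Several facts of the whole series touch every value below. Recovered depth per library ranged over 4294494 to 4800694 for livers labelled URI(+/D)Hep and 3838674 to 4337966 reads for controls. Uri1, the deleted gene, had 328, 398, 437, 354 and 401 normalized reads in livers labelled URI(+/D)Hep 1 to 5 and 468, 374 and 310.0 in controls 1 to 3, so that the groups overlapped (log2 fold change 0.01, SE 0.15). A 3′ tag outside the deleted part need not show a deletion, so groups are named by their labels and every direction rests on these. Cell cycle genes differed widely within groups: Mki67, which cycling cells express, had 469, 333, 268, 586 and 49.5 in livers labelled URI(+/D)Hep 1 to 5 and 24.0, 282 and 468 in controls 1 to 3. Xist, expressed in female cells, and Y-linked genes did not divide the libraries cleanly by sex. Controls 1 and 2 held Y-linked reads (summing to 1558 and 1312) with little Xist (9.59 and 2.95), and URI(+/D)Hep 1 held Xist (2357) with few Y-linked reads (3.54). The other 5 libraries held both: Xist ranged from 1217 to 1891 in URI(+/D)Hep 2 to 5 and was 1298 in control 3, beside Y-linked sums of 786 to 1002 in URI(+/D)Hep 2 to 5 and 569 in control 3. A library of 1 liver of a single sex would not hold both, so these 5 do not match the description as single livers, and how they came to hold both was not tested. All 10 hepatocyte markers were detected in all libraries. Those of other cells were detected as well, and summed neutrophil markers ranged from 902 to 2138 in livers labelled URI(+/D)Hep and from 1406 to 5637 in controls, with the highest 2 values in controls 1 and 2. Summed endothelial markers ranged from 2799 to 3179 in livers labelled URI(+/D)Hep and from 2215 to 2703 in controls, without overlap. Those of B and plasma cells, with 5 of 7 markers in the table, ranged from 89.8 to 194 in livers labelled URI(+/D)Hep and from 16.8 to 78.3 in controls, and Pax5 was at 0 in at least 1 control library. The part of cell cycle, of Xist and Y-linked reads and of cell makeup in the results on mitoribosomal genes was not tested, and in whole tissue fewer cells of a type and less RNA per cell cannot be told apart.

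Mitoribosomal protein mRNA was slightly lower, for most genes and in sum, in livers labelled URI(+/D)Hep. The values of the 74 genes summed to 16851, 16088, 16230, 16664 and 15806 normalized reads in livers labelled URI(+/D)Hep 1 to 5, against 19620, 17937 and 20405 in controls 1 to 3. The highest of the 5 sums labelled URI(+/D)Hep lies below the lowest control sum, that of control 2. With no overlap between groups, any split of the libraries, also one by Xist and Y-linked reads, must show the same order. Such a split therefore says nothing about the part of these reads. As a share of all reads the sums made 0.372 to 0.397% in livers labelled URI(+/D)Hep and 0.420 to 0.468% in controls. Small subunit genes summed to 4822 ± 129 in livers labelled URI(+/D)Hep and 5533 ± 334 in controls. Large subunit genes summed to 11506 ± 366 in livers labelled URI(+/D)Hep and 13788 ± 937 in controls. The ratio of small to large subunit sums was 0.402 to 0.442 in livers labelled URI(+/D)Hep and 0.393 to 0.408 in controls, so that the ranges overlapped.

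**Figure D1:**
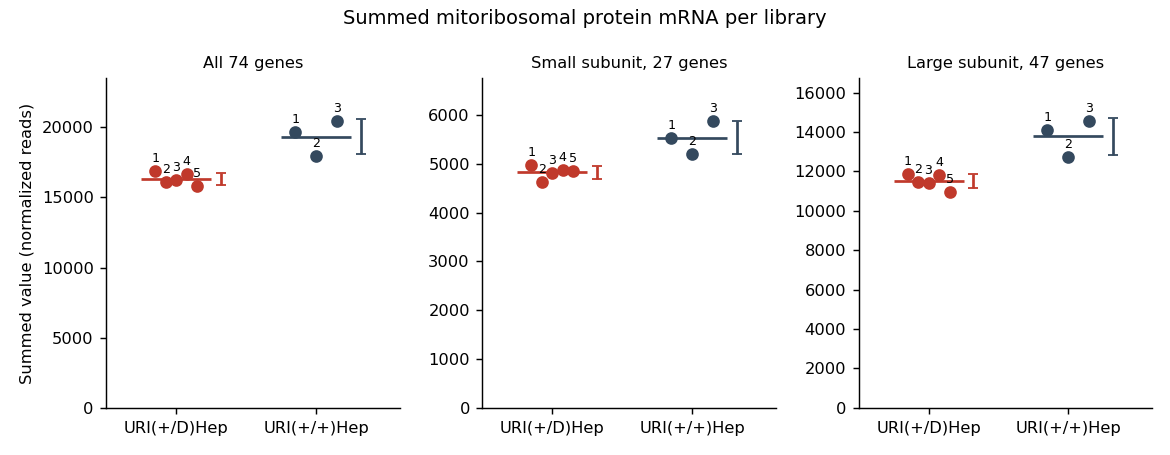
Summed normalized reads (vertical axis, from 0) of all 74 genes, of the small and of the large subunit by symbol, in each library. Points are libraries with their replicate number, lines are group means and bars at the side are SD; each sum labelled URI(+/D)Hep (15806 to 16851 for all genes) lies below each of the 3 control sums (17937 to 20405).

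The log2 fold change was negative for 63 of the 74 genes, where 50.2% of the 13704 genes tested had one. The median was -0.20 (quartiles -0.33 and -0.06), equal to 0.872 times the control level, against -0.00 over all genes tested. The members span -0.61 to 0.67, the value of Mrps36. None of them passed an adjusted p under 0.05 in limma over all genes tested, 0 of 74, where the smallest adjusted p was 0.115 and 0.0146% of all genes passed. At an unadjusted p under 0.05, limma counted 18 lower members, where the share over all genes was 9.33%. It counted 1 higher member, Mrps36, where the share over all genes was 8.35%. The 18 lower genes make 24.3% of the members. For 17 members no liver labelled URI(+/D)Hep reached the lowest control, 23.0% of them, where that held for 7.30% of all genes. The opposite, all 5 above all 3 controls, was seen for 0 members and for 6.13% of all genes. On recovered reads edgeR called 0 members, where it called 0.0219% of all genes lower and 0% higher, and 19 members were lower at an unadjusted p under 0.05. DESeq2 called 6 lower and 0 higher, of 69 members to which it gave an adjusted p, where it called 4.10% lower and 2.57% higher of the 9171 genes given one. Count tests were also run without the library of URI(+/D)Hep 5, whose smallest value above 0 lies closest to 1. There DESeq2 called 2 members lower and 0 higher, against 2.20% lower and 1.06% higher of the 11575 genes given an adjusted p. On the same libraries edgeR called 0 members and 0% of all genes.

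The large subunit held more of the lower genes. Its median log2 fold change was -0.22, 42 of its 47 genes were negative and 13 were lower at an unadjusted p under 0.05. For the small subunit the median was -0.14, 21 of 27 genes were negative and 5 were lower at that p. The difference between the subunits was not tested. Among large subunit proteins the medians were -0.19 over 29 with a bacterial counterpart and -0.24 over 20 specific to mitochondria, where Mrps30 and Mrps18a are counted because their proteins sit in the large subunit. Among small subunit proteins they were -0.14 over 15 with a counterpart and -0.19 over 9 without. Nor did the lower values gather among faint genes: the median was -0.14 over the 25 members with means up to 145 normalized reads, -0.22 over the next 25 and -0.22 over the 24 with means of 252 to 1283.

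**Figure D2:**
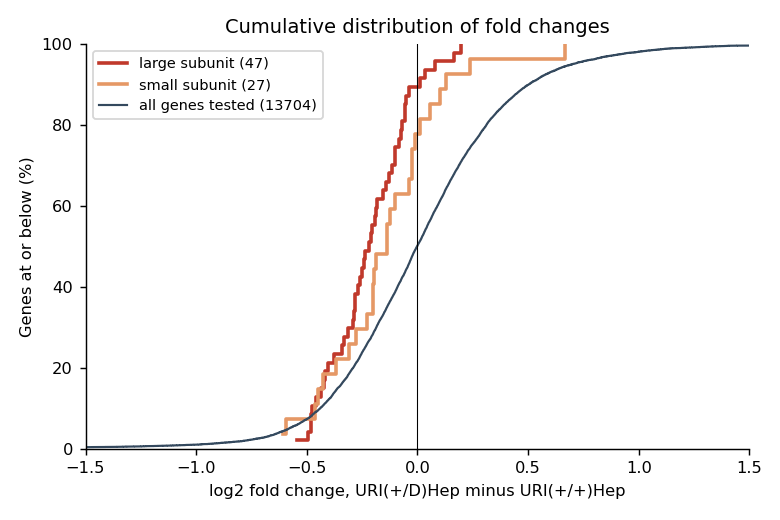
Share of genes (vertical axis, percent) at or below each log2 fold change (horizontal axis) for the large subunit, the small subunit and all genes tested. Both subunit curves lie left of that of all genes over most of the axis, with medians of -0.22 and -0.14 against -0.00.

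Of the small subunit, Mrps12, the counterpart of bacterial S12 at the decoding centre, had the smallest p. It stood at 406, 328, 409.8, 378 and 407 normalized reads in livers labelled URI(+/D)Hep 1 to 5, against 528, 499 and 566 in controls 1 to 3. The groups did not overlap, and the mean in livers labelled URI(+/D)Hep was 0.726 times that in controls (log2 fold change -0.46, SE 0.11, limma adjusted p = 0.115). Mrps16, the counterpart of bacterial S16, had 171, 184, 177, 156 and 174 in livers labelled URI(+/D)Hep 1 to 5 and 228, 209 and 263 in controls 1 to 3 (log2 fold change -0.43, SE 0.12, limma adjusted p = 0.134). Mrps2, the counterpart of S2, had 176, 144, 186, 228 and 219.6 in livers labelled URI(+/D)Hep and 249, 269 and 342 in controls (log2 fold change -0.59, SE 0.18, limma adjusted p = 0.15). Both genes were lower in all 5 livers labelled URI(+/D)Hep than in any control, and control 3 had the highest value of each.

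Mrps26, a protein specific to mitochondria, had 78.7, 89.8, 65.7, 76.8 and 88.0 in livers labelled URI(+/D)Hep 1 to 5 and 166, 87.6 and 123 in controls 1 to 3. Here control 2 lies within the range of livers labelled URI(+/D)Hep, with a difference of -0.61 on the log2 scale (SE 0.21, limma adjusted p = 0.193). That estimate rests in part on control 1, since it was -0.39 without that library and -0.32 with array quality weights, where Mrps2 stood at -0.69 and -0.68. Mrps23, also specific to mitochondria, ranged from 169.5 to 192 in livers labelled URI(+/D)Hep and from 204 to 236 in controls, without overlap (log2 fold change -0.28, limma adjusted p = 0.213). The highest small subunit genes by reads captured at 3′ ends, a count not scaled by length, were Mrps12, Mrps34 and Mrps28. Mrps34 averaged 344 ± 16.7 in livers labelled URI(+/D)Hep and 395 ± 67.4 in controls, with a log2 fold change of -0.19. Mrps28 averaged 295 ± 31.1 in livers labelled URI(+/D)Hep and 301 ± 40.4 in controls (log2 fold change -0.03). The sign for Mrps28 was not stable when single libraries were left out. Mrps11 was low, at 18.4 to 27.7 in livers labelled URI(+/D)Hep and 20.7 to 38.6 in controls.

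On the large subunit, the 2 stalk proteins Mrpl10 and Mrpl12 were both lower. The stalk is the flexible arm that draws translation factors to the ribosome, with Mrpl10 as the anchor of Mrpl12 copies, and Mrpl12 also binds the mitochondrial RNA polymerase. Mrpl10 had 331, 266, 325, 302 and 299.7 normalized reads in livers labelled URI(+/D)Hep 1 to 5 and 402, 408 and 532 in controls 1 to 3 (log2 fold change -0.54, SE 0.13, limma adjusted p = 0.115), the most negative estimate of the large subunit. Mrpl12 had 1178, 1183, 1258, 1161 and 1122 in livers labelled URI(+/D)Hep and 1415, 1272 and 1675 in controls (log2 fold change -0.29, or -0.19 without control 3, SE 0.11, limma adjusted p = 0.212). Neither gene's groups overlapped, neither passed the threshold in limma or edgeR, and Mrpl12 captured the most reads of all members. Mrpl11, at the base of the stalk, ranged from 207 to 263 in livers labelled URI(+/D)Hep and from 264 to 333 in controls (log2 fold change -0.28). For Mrpl1, of the other, movable arm of the subunit, the values were 207, 200.0, 245, 198 and 237 in livers labelled URI(+/D)Hep and 243, 319 and 368 in controls. Its groups met only at control 1 and URI(+/D)Hep 3 (log2 fold change -0.50, SE 0.15, limma adjusted p = 0.156).

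Mrpl17, Mrpl24 and Mrpl51 were lower without overlap as well. Mrpl17, whose bacterial counterpart sits near the exit of the peptide tunnel, had 566, 587, 669, 609 and 727 in livers labelled URI(+/D)Hep 1 to 5 and 1035, 810.4 and 811 in controls 1 to 3 (log2 fold change -0.48, SE 0.13, limma adjusted p = 0.127). Mrpl24 ranged from 310.3 to 418 in livers labelled URI(+/D)Hep and from 438 to 508 in controls (log2 fold change -0.34, limma adjusted p = 0.208). Mrpl51, which is specific to mitochondria, had 689, 624, 721, 813 and 681 in livers labelled URI(+/D)Hep and 814, 960.0 and 1060.0 in controls (log2 fold change -0.42, SE 0.12, limma adjusted p = 0.146). The gap for Mrpl51 is narrow, since URI(+/D)Hep 4 nearly reaches control 1. Mrpl19, a counterpart of bacterial L19 at the contact between the subunits, had 147, 141, 127, 155 and 152 in livers labelled URI(+/D)Hep and 183, 198 and 225 in controls (log2 fold change -0.48, SE 0.12, limma adjusted p = 0.122). Mrpl38, of the central protuberance, ranged from 184 to 255 in livers labelled URI(+/D)Hep and from 263 to 322 in controls (log2 fold change -0.40). Mrpl58 is a peptidyl-tRNA hydrolase built into the large subunit that frees stalled chains. Its values were 129.9, 121, 114, 128 and 91.0 in livers labelled URI(+/D)Hep and 146, 154 and 168 in controls, again without overlap (log2 fold change -0.42, SE 0.15, limma adjusted p = 0.193). Besides Mrpl11, the other genes that were lower without overlap were Mrpl37, Mrpl46, Mrpl54 and Mrpl57, with log2 fold changes of -0.28, -0.29, -0.31 and -0.25.

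DESeq2 on recovered reads gave adjusted p-values of 0.0108 for Mrps12, 0.0111 for Mrpl10, 0.0255 for Mrpl17, 0.0289 for Mrpl19, 0.0433 for Mrpl51 and 0.0447 for Mrps16. Its log2 fold changes for these 6 genes lay between -0.55 and -0.42, close to those of limma. Mrps12 and Mrpl17 were still called by DESeq2 without URI(+/D)Hep 5, with adjusted p = 0.0382 and 0.0226. In limma and edgeR none of the 6 passed.

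**Figure D3:**
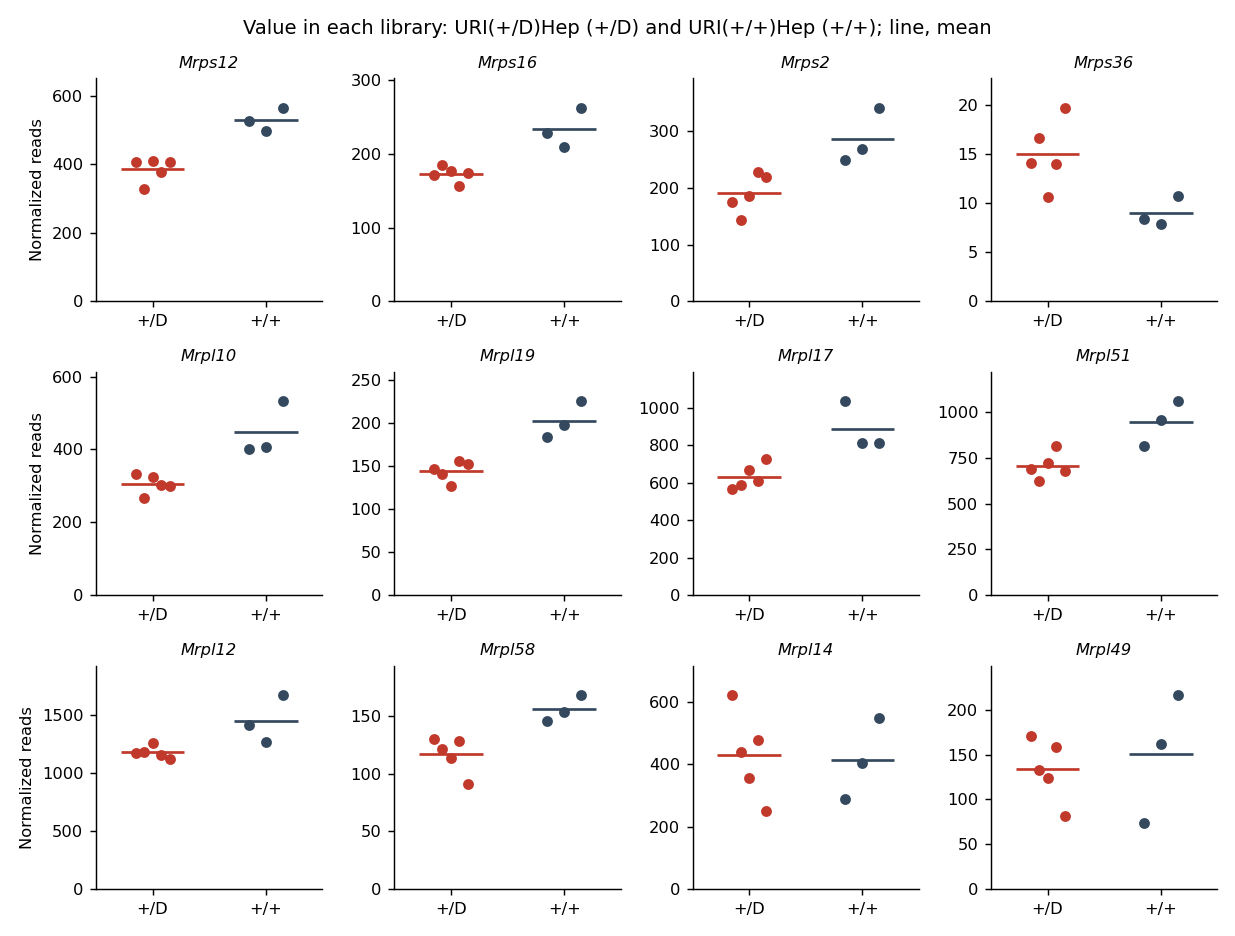
Normalized reads (vertical axes, each from 0) of 12 members in the 5 livers labelled URI(+/D)Hep (+/D, left) and the 3 controls (+/+, right); lines are means. Mrps12, Mrps16, Mrps2 and 6 of the Mrpl genes shown are lower without overlap, Mrps36 is higher (log2 fold change 0.67), and Mrpl14 and Mrpl49 spread widely within both groups.

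A minority of members went the other way or stayed level. Mrps36 had the highest estimate, at 14.1, 16.7, 10.6, 14.1 and 19.8 in livers labelled URI(+/D)Hep 1 to 5 and 8.39, 7.88 and 10.7 in controls 1 to 3 (log2 fold change 0.67, SE 0.28, limma adjusted p = 0.268). Only URI(+/D)Hep 3 overlapped with a control, and a count of 3 reads corresponds to 2.65 to 3.60 in these libraries, so each value rests on few reads. Controls 1 and 2 were under 10, so Mrps36 passed the limit only through livers labelled URI(+/D)Hep, where it was high. Its fold change and p are bound up with that limit and are no support for a rise. Despite its symbol, Mrps36 is now known as a subunit of the 2-oxoglutarate dehydrogenase complex and not of the mitoribosome. It has pseudogene copies in the table, Mrps36-ps1 and Mrps36-ps2, both averaging under 6 normalized reads in each group, so its level is uncertain. Mrps21 averaged 96.4 ± 8.95 in livers labelled URI(+/D)Hep and 81.8 ± 10.4 in controls, and Mrpl9 ranged from 88.0 to 121 in livers labelled URI(+/D)Hep and from 67.9 to 102 in controls. Mrpl47 ranged from 89.3 to 115 in livers labelled URI(+/D)Hep and from 76.8 to 108 in controls. These are counterparts of bacterial S21, L9 and L29, with log2 fold changes of 0.24, 0.19 and 0.16 and limma adjusted p of 0.413, 0.602 and 0.619. Mrpl45, which ties the ribosome to the inner membrane, averaged 222 ± 9.81 in livers labelled URI(+/D)Hep and 211 ± 24.8 in controls, with a 95% interval of its log2 fold change from -0.17 to 0.33.

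The paralogues of bacterial S18 show how far symbols and places differ. Mrps18c, of the small subunit, averaged 117 ± 6.57 in livers labelled URI(+/D)Hep and 132 ± 39.1 in controls. For Mrps18a, of the large subunit, the means were 189 ± 25.6 in livers labelled URI(+/D)Hep and 248 ± 64.0 in controls. The log2 fold changes were -0.14 for Mrps18c, which turned positive (0.0852) without control 1, and -0.37 for Mrps18a, which lay at -0.57 without control 1 and -0.19 without control 3. Mrps18b, the small subunit gene under the limit, had 5.30, 6.48, 2.90, 6.56 and 2.97 in livers labelled URI(+/D)Hep and 8.39, 8.86 and 5.36 in controls, near the level of 3 reads. Mrps30, also of the large subunit, averaged 141 ± 14.5 in livers labelled URI(+/D)Hep and 166 ± 43.4 in controls (log2 fold change -0.20, limma adjusted p = 0.599), which came to -0.03 without control 1 and -0.42 without control 2. The faintest large subunit members were Mrpl22, at 37.7 to 53.0 in livers labelled URI(+/D)Hep and 51.2 to 51.6 in controls, and Mrpl23, at 11.5 to 21.3 in livers labelled URI(+/D)Hep and 16.1 to 37.2 in controls. Mrpl23 stood below its pseudogene Mrpl23-ps1, which averaged 44.5 ± 6.77 in livers labelled URI(+/D)Hep and 47.2 ± 12.8 in controls, so reads may be split between the copies. The log2 fold change of Mrpl23 was -0.46, and -0.11 without control 1.

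**Figure D4:**
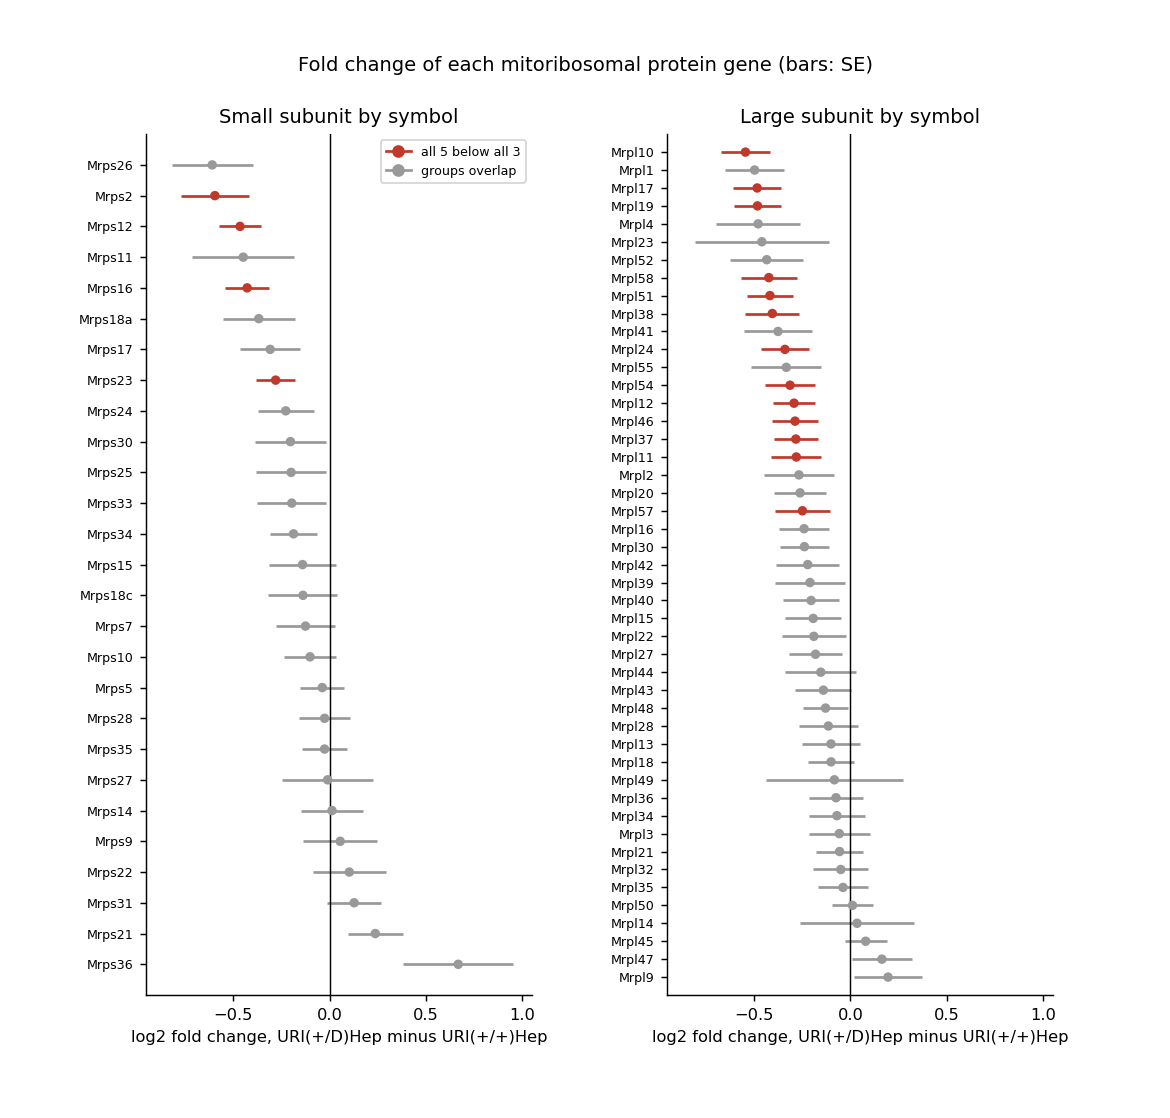
Log2 fold change of each member (horizontal axis, livers labelled URI(+/D)Hep minus controls) with its SE, by subunit. Red marks the 17 genes for which all 5 livers labelled URI(+/D)Hep lie below all 3 controls; 63 of 74 points lie left of 0, and Mrps36 stands alone at 0.67.

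The controls were not alike in these genes. A member's highest value of the 8 libraries fell in a control for 61 members, in control 3 for 32, control 1 for 26 and control 2 for 3. The lowest value fell in a liver labelled URI(+/D)Hep for 56 members, most often in URI(+/D)Hep 5 (16) and URI(+/D)Hep 3 (15). With 5 of the 8 libraries labelled URI(+/D)Hep, most lowest values would fall there without any difference. The same counts were not taken over all genes, so they describe the libraries and are no result about the members. On the log2 scale the average deviation of the members from their own mean over all libraries was -0.03, -0.08, -0.09, -0.05 and -0.11 in livers labelled URI(+/D)Hep 1 to 5 and 0.16, 0.01 and 0.19 in controls 1 to 3. Control 2 thus lies nearest to livers labelled URI(+/D)Hep. Controls 1 and 3 are the lowest and highest in the cell cycle list among controls, with average deviations of -2.06 and 1.03, and both stand above all livers labelled URI(+/D)Hep in mitoribosomal genes. Among livers labelled URI(+/D)Hep, replicate 5 was the lowest in cell cycle genes (-1.77) and in mitoribosomal genes (-0.11), and replicate 1 the highest in both (1.01 and -0.03). Without control 1 and URI(+/D)Hep 5 together the median log2 fold change of the members was -0.13, with 55 negative and 15 lower at an unadjusted p under 0.05.

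Mrpl14 and Mrpl49, singled out after their values were seen, varied more than most members within groups. Mrpl14, a counterpart of bacterial L14, had 621, 438, 356, 476 and 249 in livers labelled URI(+/D)Hep 1 to 5 and 289, 403 and 548 in controls 1 to 3. Mrpl49, specific to mitochondria, had 171, 133, 124, 158 and 81.1 in livers labelled URI(+/D)Hep and 73.2, 162 and 217 in controls. For both genes the lowest values of each group were those of URI(+/D)Hep 5 and control 1, the same libraries that were lowest in Mki67, and the highest control value was that of control 3. Their SD within groups on the log2 scale was 0.48 and 0.58, where the median over members was 0.18, and their log2 fold changes were 0.03 (SE 0.30) and -0.08 (SE 0.36).

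Promoters were examined because most members were lower together. They are shown for 4 genes with the lowest p-values that the promoter table holds, Mrps12, Mrpl10, Mrpl17 and Mrps16, and for Mrps36, which had the opposite sign. RefSeq promoters of build GRCm38.p6, 250 bases before to 50 after the first listed start, matched 65 of the 74 members. Reads were counted on GRCm39, so these sequences serve for their letters only. Capitals mark matches, on either strand, to the NRF1 motif, CCGGAAG (ETS factors such as GABPA), AAGATGGC (YY1), CACGTG (E-box), TGACGTCA (CRE) and TGATGCAA (ATF4 composite element). Different motifs may overlap, and each was counted on its own.
Mrps12 (chr7:28741772-28742071, minus strand): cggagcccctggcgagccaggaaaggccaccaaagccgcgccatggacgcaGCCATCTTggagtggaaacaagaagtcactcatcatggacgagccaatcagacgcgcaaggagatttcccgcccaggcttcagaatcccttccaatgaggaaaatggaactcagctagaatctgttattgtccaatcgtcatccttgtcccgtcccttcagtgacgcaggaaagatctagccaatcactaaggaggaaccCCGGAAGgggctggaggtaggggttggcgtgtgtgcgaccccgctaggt
Mrpl10 (chr11:97041332-97041631, plus strand): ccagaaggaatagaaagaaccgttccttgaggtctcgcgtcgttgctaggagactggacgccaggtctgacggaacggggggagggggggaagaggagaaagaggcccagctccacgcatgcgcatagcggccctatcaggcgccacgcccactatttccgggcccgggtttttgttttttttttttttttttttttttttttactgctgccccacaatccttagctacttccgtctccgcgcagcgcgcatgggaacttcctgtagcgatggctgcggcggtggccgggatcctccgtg
Mrpl17 (chr7:105811038-105811337, minus strand): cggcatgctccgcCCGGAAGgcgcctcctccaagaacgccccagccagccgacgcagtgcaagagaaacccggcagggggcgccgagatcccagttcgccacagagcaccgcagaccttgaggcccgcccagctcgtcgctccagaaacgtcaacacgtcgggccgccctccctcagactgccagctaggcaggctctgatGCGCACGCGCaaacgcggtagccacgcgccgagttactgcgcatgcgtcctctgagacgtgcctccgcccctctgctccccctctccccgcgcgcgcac
Mrps16 (chr14:20393441-20393740, minus strand): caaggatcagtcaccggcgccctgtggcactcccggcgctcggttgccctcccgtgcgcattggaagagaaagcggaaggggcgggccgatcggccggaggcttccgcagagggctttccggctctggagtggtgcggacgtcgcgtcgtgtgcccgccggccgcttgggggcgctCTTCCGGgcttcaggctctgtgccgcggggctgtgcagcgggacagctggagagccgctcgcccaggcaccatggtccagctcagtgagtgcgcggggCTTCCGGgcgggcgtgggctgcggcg
Mrps36 (chr13:100744610-100744909, minus strand): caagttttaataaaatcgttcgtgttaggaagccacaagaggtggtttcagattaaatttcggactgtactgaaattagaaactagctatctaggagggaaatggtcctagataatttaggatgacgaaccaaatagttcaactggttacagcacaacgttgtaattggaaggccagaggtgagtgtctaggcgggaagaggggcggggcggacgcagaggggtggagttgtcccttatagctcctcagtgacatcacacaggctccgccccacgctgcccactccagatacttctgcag
The Mrps12 window holds the letters of YY1 and ETS, that of Mrpl17 those of ETS and NRF1, and that of Mrps16 those of ETS at 2 places. Neither Mrpl10 nor Mrps36 has a match, which says only that these letters are not in the windows.

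Across the 65 member promoters, 33.8% held the ETS letters, 20.0% those of NRF1 and 18.5% those of YY1. Over all 27025 promoters of the table the shares were 9.12% for ETS, 4.78% for NRF1 and 2.88% for YY1. Among the 10344 promoters of genes tested, 1813 held the ETS letters, 1036 those of NRF1 and 467 those of YY1. The E-box was in 7.69% of member promoters, 7.24% of all promoters and 10.1% of those of genes tested. The CRE was in 3.08% of member promoters, 1.88% of all and 3.17% of those of genes tested. The ATF4 element was in 0 of 65 member promoters, 0.929% of all and 0.657% of those of genes tested. At least 1 of the ETS, NRF1 and YY1 letters was in 39 member promoters, 60.0%, against 15.2% of all promoters and 28.5% of those of genes tested. NRF1, ETS and YY1 sites are known features of promoters of nuclear genes for mitochondria. The median log2 fold change was -0.19 over members with the ETS letters and -0.20 over those without. It was -0.15 with and -0.20 without the NRF1 motif, and -0.17 with and -0.20 without the YY1 letters. All 12 members with the YY1 letters had a negative log2 fold change, as did 20 of 22 with the ETS letters and 8 of 13 with the NRF1 motif. Over all 74 members 63, or 85.1%, were negative, so these counts do not mark the motifs as a feature of lower members. Differences between members with and without a motif were not tested.

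Several members share a start region with a gene on the other strand. In the GENCODE M21 annotation, which is of GRCm38, 22 of the 74 members, and Mrps18b, had a protein-coding gene starting on the other strand within 1000 bases upstream or with a small overlap. In 20 pairs both genes were tested, and the partners had a median log2 fold change of 0.03, against -0.17 for the members of these pairs. In 11 pairs the member was negative and the partner positive, in 8 both were negative and in 1 both were positive. Sars2, the mitochondrial seryl-tRNA synthetase, starts 172 bases from Mrps12 on the other strand, a distance shorter than the stretch printed upstream of Mrps12. It had 31.8, 26.9, 29.0, 26.2 and 28.7 normalized reads in livers labelled URI(+/D)Hep 1 to 5 and 14.4, 19.7 and 18.2 in controls 1 to 3, higher without overlap, while Mrps12 was lower without overlap. The log2 fold change of Sars2 was 0.69 (SE 0.20, limma adjusted p = 0.147), against -0.46 for Mrps12. Of the partners at an unadjusted p under 0.05, Sars2 and Helq were higher and Wdfy1, Pnpla7 and Zfp661 were lower, all without overlap between groups and none past the limma threshold. Over all genes tested, 8.35% were higher and 9.33% lower at that p in limma, and 6.13% were higher and 7.30% lower without overlap. With only 20 pairs, these few partners are single cases and no result about shared start regions. The helicase gene Helq, the partner of Mrps18c, had 30.9, 33.3, 36.7, 30.0 and 29.7 in livers labelled URI(+/D)Hep and 14.4, 23.6 and 23.6 in controls, with a log2 fold change of 0.65 (limma adjusted p = 0.193). In the other direction, like their members, were Wdfy1, at 407 to 442 in livers labelled URI(+/D)Hep and 499.9 to 727 in controls (log2 fold change -0.44, limma adjusted p = 0.156), and Pnpla7, at 1341 to 1623 in livers labelled URI(+/D)Hep and 1715 to 2047 in controls (log2 fold change -0.31, limma adjusted p = 0.178). Their members are Mrpl44 and Mrpl41, with log2 fold changes of -0.15 and -0.38. Zfp661, the partner of Mrps5, ranged from 8.84 to 17.4 in livers labelled URI(+/D)Hep and from 19.2 to 33.3 in controls (log2 fold change -0.72, limma adjusted p = 0.275), and Mrps5 had a log2 fold change of -0.04. By the same annotation, the last 500 bases of Mrps34 and Mrpl51 overlap a gene on the same strand, Nme3 and Mir3098, and those of Mrpl24, Mrpl19, Mrps25, Mrpl10, Mrps7, Mrpl12, Mrps34 and Mrpl49 a gene on the other strand. The sources used here do not give the strand setting of the counting, so reads of these genes and of their neighbours may be mixed.

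Mitoribosomal proteins whose symbols lie outside the rule were mostly negative as well. The median log2 fold change of Dap3, Ptcd3, Chchd1, Aurkaip1 and Gadd45gip1 was -0.25, with 4 negative, 1 lower at an unadjusted p under 0.05, and 0 past the threshold in limma over all genes tested. Of all genes tested, 50.2% were negative and 9.33% were lower at that unadjusted p. Chchd1, of the small subunit, had 471, 511, 534, 530.2 and 506 in livers labelled URI(+/D)Hep 1 to 5 and 656, 705 and 742 in controls 1 to 3. The groups lay wide apart, yet limma gave an adjusted p of 0.114 (log2 fold change -0.46, SE 0.09). Dap3, a GTP-binding protein of the small subunit, averaged 169 ± 19.3 in livers labelled URI(+/D)Hep and 201 ± 15.4 in controls, and Aurkaip1 273 ± 33.9 in livers labelled URI(+/D)Hep and 317 ± 32.9 in controls.

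The factors that build the mitoribosome were lower in most cases, too. Of 30 assembly and rRNA modification factors 22 were negative, with a median of -0.19, 6 lower and 1 higher at an unadjusted p under 0.05, and 0 passed in limma over all genes tested. At that unadjusted p, 20% of these factors were lower and 3.33% higher, against 9.33% and 8.35% of all genes tested. Of all genes tested, 50.2% were negative. Rcc1l, an assembly factor of the large subunit, averaged 195 ± 20.9 in livers labelled URI(+/D)Hep and 289 ± 63.9 in controls, with a log2 fold change of -0.55. Fastkd2, which binds the large rRNA, averaged 101 ± 8.41 in livers labelled URI(+/D)Hep and 134 ± 13.7 in controls (log2 fold change -0.40). Mterf3, known in mouse as a brake on transcription of mitochondrial DNA, had the opposite sign, at 29.4 ± 1.55 in livers labelled URI(+/D)Hep and 15.9 ± 3.85 in controls (log2 fold change 0.87, SE 0.22, limma adjusted p = 0.12).

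The medians for translation factors and tRNA synthetases of mitochondria lay nearer to 0. The 17 translation factors tested had a median of -0.07 with 10 negative, and the 17 synthetases one of -0.09 with 11 negative. Neither list held a gene past the limma threshold, and at an unadjusted p under 0.05 there were 2 lower and 1 higher translation factors, and 1 lower and 1 higher synthetase. For translation factors these make 11.8% lower and 5.88% higher, and for synthetases 5.88% each way. Over all genes tested the shares were 9.33% lower and 8.35% higher, so these counts are no result about the lists. Tsfm, the exchange factor for the elongation factor Tu, averaged 65.8 ± 7.34 in livers labelled URI(+/D)Hep and 97.6 ± 21.6 in controls. Mtfmt, which formylates the initiator tRNA, averaged 105 ± 14.6 in livers labelled URI(+/D)Hep and 149.7 ± 28.2 in controls. Mtrf1l, a release factor, averaged 64.1 ± 4.38 in livers labelled URI(+/D)Hep and 43.9 ± 9.84 in controls. Their log2 fold changes were -0.55, -0.50 and 0.56, with limma adjusted p of 0.168, 0.188 and 0.173. Of the synthetases, Tars2 averaged 102 ± 9.44 in livers labelled URI(+/D)Hep and 129 ± 14.1 in controls, and Nars2 167 ± 15.9 in livers labelled URI(+/D)Hep and 137 ± 11.0 in controls.

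The mitochondrial rRNAs had the opposite sign to most of the proteins that bind them. Tags of mt-Rnr1, the rRNA of the small subunit, numbered 12522, 14376, 18367, 15851 and 13663 normalized reads in livers labelled URI(+/D)Hep 1 to 5 and 4919, 9054 and 7139 in controls 1 to 3. Those of mt-Rnr2, of the large subunit, averaged 33000.1 ± 6569.7 in livers labelled URI(+/D)Hep and 16057 ± 2230.4 in controls. Both were higher without overlap, with log2 fold changes of 1.12 (SE 0.21, limma adjusted p = 0.108) and 1.02 (SE 0.20, limma adjusted p = 0.108), short of the threshold. Oligo-dT priming captures only rRNA with a run of A, so these tags need not follow the amount of rRNA. Of the 13 genes for transcription and mRNA stability in mitochondria, 6 were negative, with a median of 0.18, and 0 passed in limma, with 2 lower and 0 higher at an unadjusted p under 0.05. These make 15.4% lower and 0% higher, against 9.33% and 8.35% of all genes tested. Lrpprc, which protects mitochondrial mRNAs, averaged 1519 ± 151 in livers labelled URI(+/D)Hep and 1967 ± 188 in controls. The polymerase gene Polrmt ranged from 21.8 to 39.8 in livers labelled URI(+/D)Hep and from 22.8 to 41.8 in controls, and Tfam, the packaging and initiation factor, averaged 356 ± 61.5 in livers labelled URI(+/D)Hep and 295 ± 39.2 in controls (log2 fold changes -0.37, -0.02 and 0.26).

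**Figure D5:**
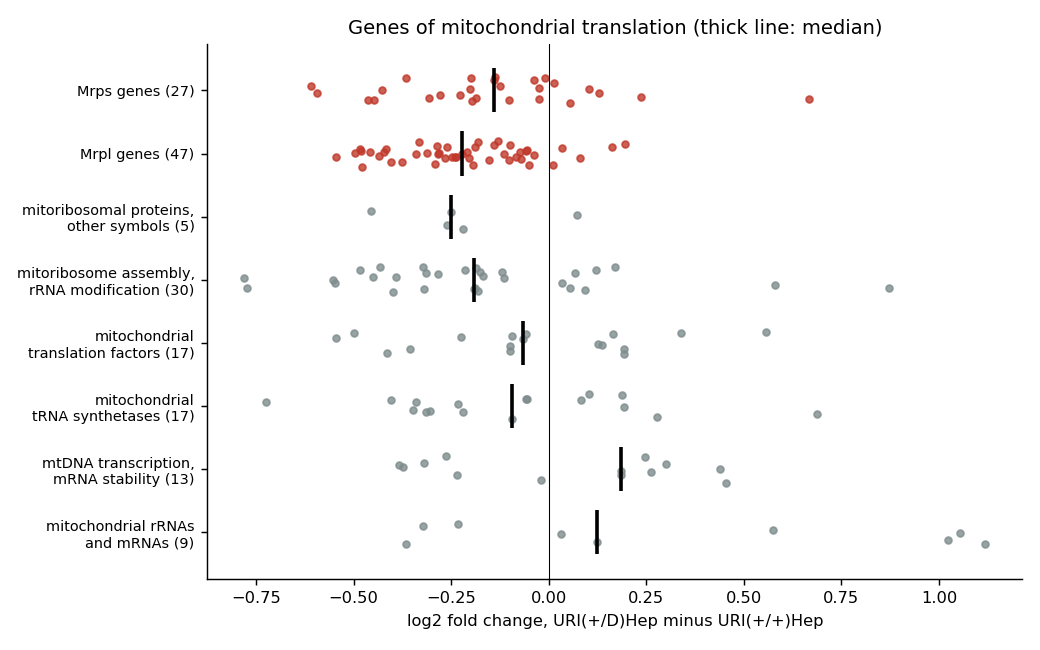
Log2 fold changes (horizontal axis) of single genes in lists of mitochondrial translation, livers labelled URI(+/D)Hep minus controls, with the number of genes tested in brackets; thick lines are medians. The Mrps and Mrpl genes (medians -0.14 and -0.22), the other mitoribosomal proteins (-0.25) and the assembly factors (-0.19) lie mostly left of 0. Mitochondrial rRNAs and mRNAs lie on both sides, from -0.37 to 1.12.

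Regulators of nuclear genes for mitochondria did not share a direction. Of 9 tested, 3 were negative, and 0 passed in limma over all genes tested, with 1 lower and 2 higher at an unadjusted p under 0.05. These make 11.1% lower and 22.2% higher, against 9.33% and 8.35% of all genes tested. Pprc1, a coactivator induced by growth signals, had 145, 132, 152, 154 and 142 in livers labelled URI(+/D)Hep 1 to 5 and 189, 179 and 192 in controls 1 to 3 (log2 fold change -0.37, SE 0.10, limma adjusted p = 0.145). It was lower without overlap. Ppargc1b, a related coactivator, had 116, 167, 215, 141 and 284 in livers labelled URI(+/D)Hep and 80.4, 107 and 86.9 in controls, higher without overlap (log2 fold change 0.94, SE 0.27, limma adjusted p = 0.146). The transcription factor gene Yy1 averaged 401 ± 22.2 in livers labelled URI(+/D)Hep and 315 ± 40.1 in controls, and Nrf1 382 ± 23.3 in livers labelled URI(+/D)Hep and 346 ± 36.8 in controls. Gabpa, of the ETS family, ranged from 76.9 to 105 in livers labelled URI(+/D)Hep and from 75.1 to 106 in controls. Myc was under the limit for testing, at 4.68 to 8.84 in livers labelled URI(+/D)Hep and 6.44 to 22.8 in controls. The stress factor gene Atf4 averaged 1005 ± 182 in livers labelled URI(+/D)Hep and 1566 ± 229.9 in controls (log2 fold change -0.65, limma adjusted p = 0.12). Psat1 and Trib3 were lower without overlap (log2 fold changes -1.68 and -1.40, limma adjusted p of 0.0608 and 0.109). All 9 tested genes of the ATF4 response list were negative, with 0 past the limma threshold and 4 lower at an unadjusted p under 0.05. Over all genes tested these shares were 50.2% negative and 9.33% lower. Asns, in both counts, passed the limit only through controls, at 20.4 to 31.5 against 3.54 to 16.8 in livers labelled URI(+/D)Hep. Its direction and p are bound up with that limit and are no support for a fall.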

How the data were processed

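The authors deposited normalized signal, 1 value per gene symbol and library, scaled by a factor per library. Tools named in the submitters' processing notes are featureCounts, bcl2fastq and DESeq2, with the build GRCm39. The sources used here give neither the aligner nor the annotation, nor whether reads sharing a molecular identifier were merged. Each library was divided by its smallest value above 0, which made 100% of values whole within a tolerance of 1e-06. For URI(+/D)Hep 5 that smallest value, 0.989, is the closest to 1 and was taken as less certain to be a single read. Control 2, at 0.985, lies nearly as close and was kept, so the values do not set URI(+/D)Hep 5 apart. P-values measure the spread between livers as labelled.

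Values of 13704 genes with at least 10 normalized reads in at least 3 libraries were put on the scale log2(value + 1) and compared by limma 3.58.1, run in R 4.3.3 (mean-variance trend, Benjamini-Hochberg over all genes tested, threshold 0.05). Fold changes on this scale understate those of low genes. The limma step was tested on simulated data. There it called 7.46% of genes changed 1.5-fold, 33.8% of those changed 2-fold, 79.7% of those changed 4-fold and 0.0366% of unchanged genes. Changes of 1.5-fold were thus seldom called, so 0 called members does not show that none changed. Alternatives were other pseudocounts, filters and scalings, a replicate block, array quality weights, left-out libraries, a covariate for Y-linked reads, and edgeR 4.0.16 and DESeq2 1.42.0 on recovered reads. The members and lists were chosen with earlier results of these data known. Members were named by a fixed rule: up to 12 without overlap between groups, the 6 smallest p-values per subunit, the highest and lowest levels and fold changes per subunit, and 7 genes by name. Genes of other lists were named by their smallest p-values, up to 3 per list, or by name, and not every gene so chosen is printed. Examples outside that rule are Mrpl11, Mrpl37, Mrpl45, Mrpl46, Mrpl54, Mrpl57, Mrpl14, Mrpl49, Mrpl44, Mrpl41, Mrps5, Helq, Wdfy1, Pnpla7 and Zfp661, chosen after their values were seen. The same holds for mt-Nd1, mt-Nd2 and mt-Nd4.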

Additional observations from a re-analysis of the deposited data

Results flagged for a closer look

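In 2 of 29 comparisons within the 5 livers labelled URI(+/D)Hep, over the members named by the rule and 3 averages of members, a single liver stood far from the others. Chance alone gives such a gap in about 1 in 20 groups. Mrps18c reached 128 normalized reads in URI(+/D)Hep 1, against 112 to 116 in the other 4 livers with this label. Mrps30 was at 116 in URI(+/D)Hep 3, against 143 to 152 in the other 4.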

How the results depend on the processing

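The median log2 fold change of the members kept its sign in every setting run, from -0.26 to -0.13, and so did those of the small subunit (-0.23 to -0.11) and of the large subunit (-0.29 to -0.14). The medians moved by more than the spread between libraries without control 1 and URI(+/D)Hep 5 together (-0.13 for all members and -0.14 for the large subunit) and with the share of Y-linked reads as covariate (-0.23 for the small subunit). Assigning subunits by structure left both medians within that spread. Leaving out single libraries gave 57 to 64 negative members, 14 to 20 lower at an unadjusted p under 0.05, 0 called members and 0 to 34 called genes of all, where 34 was the count without control 3. Called genes of all numbered 2 in limma, 4 with a mean of at least 50 or with array quality weights, 1 without control 1 and URI(+/D)Hep 5 together, and 0 with quantile normalization, without the trend, with the covariate and with the replicate block. DESeq2 called 612 genes and 6 members, and on 7 libraries, a setting chosen after seeing the data, 378 and 2, while edgeR on those 7 libraries called 0. The cause of these differences was not tested.

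With the replicate block 61 members were negative, the median was -0.20 and 8 were lower at an unadjusted p under 0.05, against 18 without it. Same-numbered livers did not deviate together: the correlations of their deviations from the group means were -0.40, -0.04 and -0.27 for numbers 1, 2 and 3, so the samples share only a number, and URI(+/D)Hep 4 and 5 have no partner.

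Of 594 repeats over 26 named members, 8 changed sign, in 4 genes. These were Mrpl47 (-0.00644) and Mrps30 (0.0375) with array quality weights, Mrps18c without control 1 and URI(+/D)Hep 5 together (0.0877), and, with single libraries left out, Mrps18c (-0.325 to 0.0852, positive without control 1) and Mrps28 (-0.136 to 0.0577, positive in 4 cases). In another 8 a gene became called, all in DESeq2, and 578 kept direction and side of the threshold. Depth limits Mrps36, Mrps18b, Mrps11 and Mrpl23 most, since their values rest on few reads.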
